A study of Mus musculus with 32 samples.

Results

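Total RNA of untreated E1KD cells was compared with total RNA of untreated NMuMG cells on Affymetrix mouse genome arrays. The comparison rests on 4 of the 32 arrays of the study, 2 of E1KD cells and 2 of NMuMG cells, which were chosen by their titles. NMuMG is an established epithelial cell line of the mouse mammary gland. E1KD is a derivative of it in which the RNA-binding protein hnRNP E1 was knocked down. Both were kept in the same medium with serum and insulin, and neither received TGFβ on these 4 arrays. For each comparison made with TGFβ, 2 E1KD and 2 NMuMG arrays of total RNA from cells given TGFβ (5 ng/ml, 24 h) were used. E1KD is 1 derivative line, and the way the knockdown was made is not given in the sources used here, so the effect of the knockdown and any other difference between the lines cannot be told apart. The 2 arrays of a group are labelled as biological replicates, and the study calls them independent samples. It is not stated that they came from separate cultures. The p-values therefore measure only the spread between arrays of a group, which may be technical. That spread was estimated over 24 arrays, which include polysomal and monosomal RNA.

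hnRNP E1, also called poly(C)-binding protein and encoded by Pcbp1, is an abundant RNA-binding protein of nucleus and cytoplasm that binds C-rich stretches of RNA and takes part in splicing, mRNA stability and translation. In mammary epithelial cells it is known for holding a set of mRNAs in a translationally silent state, from which TGFβ signalling through Akt2 releases them. Those mRNAs encode proteins of the epithelial-mesenchymal transition (EMT), in which epithelial cells give up their cell junctions and polarity and take on contractile, matrix-rich and motile features. The study describes E1KD cells as being in a constitutive EMT. The comparison of total RNA asks which transcripts differ in level between such cells and their parent line before any TGFβ is added.

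Pcbp1 was measured first, because it checks the labels. Its signal was 10.79 and 10.86 on the log2 scale in E1KD cells, against 13.08 and 13.12 in NMuMG cells. By limma, with p-values adjusted over all probe sets tested, the difference was -2.28 (standard error 0.10, adjusted p = 9.07e-11), a level 4.84-fold lower in E1KD cells. Pcbp1 transcript thus remained well above the lower limit of 5.52 that was set for a measurable signal, the median of all values in the study. In a bulk sample, fewer cells that express a gene and less RNA of it per cell cannot be told apart. With TGFβ, Pcbp1 stood at 9.55 and 9.33 in E1KD cells and at 13.14 and 13.14 in NMuMG cells, and the gap of -3.70 was larger than without TGFβ by 1.42 (interaction -1.43, standard error 0.15, adjusted p = 8.04e-06).

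Pcbp4, a poly(C)-binding protein known in human cells as a target of p53, was the other family member that passed the test. It gave 8.79 and 8.92 in E1KD cells, against 7.73 and 7.63 in NMuMG cells, a difference of 1.18 (standard error 0.12, adjusted p = 1.33e-06). Pcbp2, the close paralog of Pcbp1, read 13.24 and 13.25 in E1KD cells and 13.18 and 13.26 in NMuMG cells, so the groups overlapped. Another of its 3 probe sets, however, differed by -0.34 (adjusted p = 0.0123). Pcbp3 (difference 0.18, adjusted p = 0.273) and Hnrnpk, the related hnRNP K (difference -0.12, adjusted p = 0.582), did not pass. Among 20 other hnRNP genes, 7 were lower and 1 was higher in E1KD cells, with a median difference of -0.29. Over all genes 15.1% were lower and 17.8% higher. Of the 20, 7 to 14 were lower under other settings, and fewer with an array left out. The lower members comprised Hnrnpul2 (-0.70), Hnrnpd (-0.68) and Hnrnpa2b1 (-0.62), all changes of less than 1 on the log2 scale, a second probe set of Hnrnpul2 differed by 0.24 (adjusted p = 0.346), and a second, dimmer probe set of Hnrnpd differed by 0.78 without passing (adjusted p = 0.0587).

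**Figure D1:**
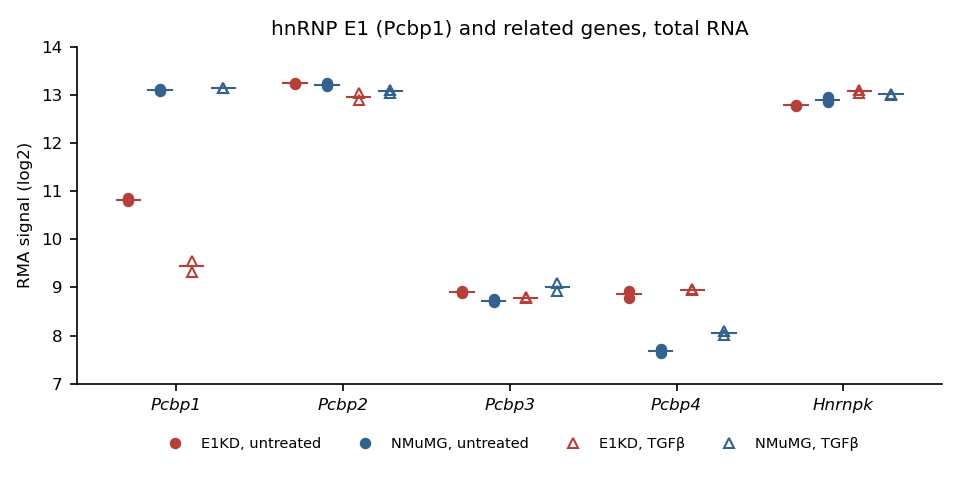
RMA signal (log2) of Pcbp1, the other poly(C)-binding protein genes and Hnrnpk in total RNA, 1 point per array and a bar at the mean of 2, E1KD in red and NMuMG in blue, filled circles without and open triangles with TGFβ. Pcbp1 lies near 11 in untreated E1KD arrays and near 13 in NMuMG arrays, Pcbp4 is higher in E1KD, and the other 3 genes nearly coincide.

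Across the transcriptome the lines differed widely. Of 12600 genes tested by limma, 2242 (17.8%) were higher and 1898 (15.1%) were lower in E1KD cells at an adjusted p under 0.05. These shares are the background for the count of each gene list without TGFβ. The median difference over all genes was -0.015 on the log2 scale. Differences of at least 1, that is 2-fold, were found for 696 higher and 539 lower genes, and differences of at least 3, or 8-fold, for 73 higher and 46 lower genes. Replicate arrays were close, with Pearson's r across probe sets of 0.9968 for E1KD and 0.9973 for NMuMG. Epithelial keratins were at the top of the range in all 4 arrays. Krt8 and Krt18, the keratin pair of simple epithelia, lay between 14.13 and 14.36 and did not pass the test. Epcam, another general epithelial marker, was near the limit in both lines (6.21 and 5.88 in E1KD, 6.0 and 6.21 in NMuMG). Of 4 tested basal and myoepithelial markers 2 were higher and none lower, namely Acta2, also counted among the mesenchymal genes, and the smooth muscle actin Actg2 (4.79 and 5.15 in E1KD, 3.74 and 4.06 in NMuMG, all under the limit). The summed linear signal of the basal list was 366 to 373 in E1KD cells, against 207 to 219 in NMuMG cells, while the defining markers Krt14 and Trp63 were under the filter. Of 4 tested luminal and milk genes 1, the casein gene Csn3, was lower (-1.46). Fibroblast, endothelial, leukocyte and adipocyte markers were mostly under the filter, which passed 1 of 10, 2 of 7, 5 of 10 and 1 of 5 of them. Their summed linear signal was 318 to 326 against 236 to 254 for fibroblast markers, 156 to 169 against 165 to 181 for endothelial markers, 704 to 790 against 767 to 807 for leukocyte markers and 101 to 107 against 116 for adipocyte markers, E1KD against NMuMG. Of these markers Cd68 (1.73), a lysosomal protein rich in macrophages, was higher and Csf1r (-1.41), the receptor of the macrophage growth factor CSF1, was lower, and the part of other cell types in the results was not tested.

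The largest increases were of genes that were at or near the lower limit in NMuMG cells and abundant in E1KD cells. Of the 15 largest, 11 had both NMuMG arrays at or under 5.52, and their differences are those of the RMA scale, on which signals that low are not resolved. Lhfp, a tetraspan membrane protein first met as a fusion partner of HMGA2 in human lipoma, gave 10.34 and 10.53 in E1KD cells, against 3.55 and 3.59 in NMuMG cells, a difference of 6.87. Hs6st2, which sulphates heparan sulphate chains, gave 10.37 and 10.35 in E1KD cells, against 4.29 and 4.22 in NMuMG cells. These probe sets were under the limit in the parent line, though another Hs6st2 probe set read 5.67 and 5.98 there and differed by 0.39 (adjusted p = 0.19). Rragd, a Rag GTPase that brings mTORC1 to the lysosome, gave 10.20 and 10.29 in E1KD cells, against 4.24 and 4.64 in NMuMG cells. Hexa, a subunit of the lysosomal enzyme β-hexosaminidase, gave 11.64 and 11.57 in E1KD cells, against 5.85 and 5.84 in NMuMG cells. Trip6, a LIM protein of focal adhesions in the zyxin family (difference 5.17), Map2, a microtubule-associated protein best known from neurons (5.09), the skeletal muscle actin Acta1 (4.90), and the Src family kinase Fyn (4.73) followed, with the phosphodiesterase Pde8a (5.37), the cathepsin inhibitor-like Ctla2a (5.23), Klhl30 (5.21), Btbd11 (5.07), the mitochondrial folate enzyme Aldh1l2 (4.88), the zinc finger gene Zfp647 (4.72) and the small heat shock protein Hspb8 (4.70). All 15 were also above 0 in the E1KD minus NMuMG difference of the polysomal and of the monosomal RNA pool, which were measured on other arrays. With TGFβ 14 of them were also higher, the exception being Klhl30.

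The 15 largest decreases were of genes with varied roles. S100a8 and S100a9, whose products pair up as the antimicrobial calprotectin, were at or under the limit in E1KD cells. S100a8 read 5.10 and 4.91 in E1KD cells, against 12.34 and 12.34 in NMuMG cells, a difference of -7.33, and S100a9 differed by -4.14. Serpina1b, an antitrypsin gene of the liver and of glands, read 3.87 and 4.19 in E1KD cells, against 11.71 and 11.72 in NMuMG cells. It belongs to a cluster of near-identical copies with Serpina1c (-4.54), and the probe sets cannot be assigned to 1 copy with certainty. Genes known from epithelia were Lgals4, a galectin of intestinal epithelium (6.5 and 6.64 in E1KD, 11.86 and 11.94 in NMuMG), Mal2, needed for transport to the apical membrane (3.19 and 3.21 in E1KD, 7.88 and 8.02 in NMuMG), and the kidney-type cadherin Cdh16 (-4.53). Immune genes were among them, namely the complement factor Cfb (-4.42) and the alarmin Il33 (-4.36). The rest were Sec16b, of endoplasmic reticulum exit sites (-5.61), the ether lipid enzyme Agmo (-4.96), the phospholipase Plce1 (-4.32), the prostaglandin D synthase Hpgds (-4.30), the aldo-keto reductase Akr1c19 (-4.28) and the apolipoprotein Apoc2 (-4.14). Of these 15 genes, 9 had both E1KD arrays at or under 5.52. In the polysomal pool 14 of the 15 were also below 0, the exception being S100a8, and in the monosomal pool all 15 were. With TGFβ all 15 were also lower in E1KD cells.

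**Figure D2:**
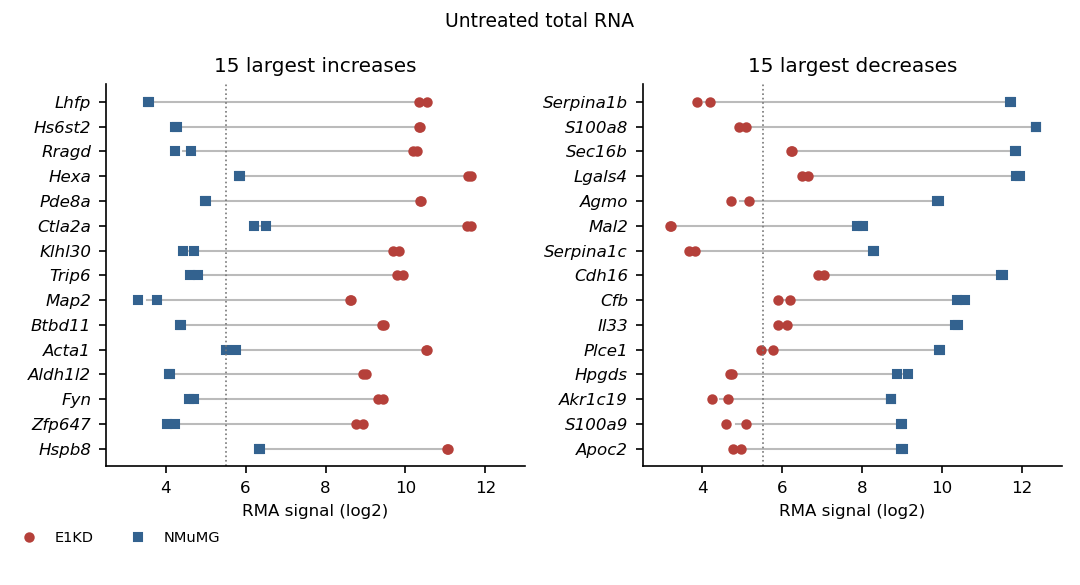
RMA signal (log2) of the 15 genes with the largest increase (left) and the 15 with the largest decrease (right), 1 red circle per E1KD array and 1 blue square per NMuMG array. The dotted line marks the limit of 5.52, under which 11 of the 15 increased genes lie in both NMuMG arrays and 9 of the 15 decreased genes lie in both E1KD arrays.

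Genes of cholesterol synthesis, which makes the sterol of cell membranes from acetyl-CoA, were lower nearly throughout. Of 18 tested genes, 17 were lower in E1KD cells and none was higher, with a median of -1.32, against -0.015 for all genes, 15.1% of which were lower. Only Hsd17b7 did not pass (9.02 and 9.19 in E1KD, 9.29 and 9.42 in NMuMG). The lower genes lay along the whole pathway. Hmgcs1, which makes the first committed intermediate, gave 11.23 and 11.15 in E1KD cells, against 12.64 and 12.68 in NMuMG cells (-1.47, chosen after its values were seen). Idi1, of the isoprenoid part, gave 9.49 and 9.42 in E1KD cells, against 11.46 and 11.45 in NMuMG cells. Fdft1, squalene synthase, gave 10.06 and 10.09 in E1KD cells, against 11.82 and 11.85 in NMuMG cells. These 3 enzymes were therefore 1.47 to 2.00 lower. Cyp51, the sterol demethylase, and Insig1, the membrane protein that keeps the sterol sensor SCAP in the endoplasmic reticulum and is itself a target of the pathway, had the same difference of -2.08, and Insig1 gave 8.11 and 8.06 in E1KD cells, against 10.23 and 10.10 in NMuMG cells. With each array left out in turn, 15 to 16 of the 18 were lower. With TGFβ the same list had 15 lower and none higher, with 14.5% of all genes lower in that comparison, and the median differences of the polysomal and monosomal pools were -1.17 and -1.92.

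Mitotic genes were also lower, and here the direction depended on TGFβ. Of 47 tested genes, 38 were lower in untreated E1KD cells and none was higher, with a median of -0.81. They span the motor proteins of the spindle, the kinetochore and the kinases of mitotic entry and exit. Kif20b, a motor of the cleavage furrow, gave 7.07 and 7.31 in E1KD cells, against 8.98 and 8.86 in NMuMG cells. Kif23, of the central spindle, gave 8.97 and 9.10 in E1KD cells, against 10.49 and 10.63 in NMuMG cells. Cenpf, of the outer kinetochore, gave 8.32 and 8.53 in E1KD cells, against 9.91 and 9.93 in NMuMG cells. The 3 genes were lower by 1.5 to 1.73, and the fourth by size was the spindle motor Kif11 (-1.43). The proliferation marker Mki67, chosen after its values were seen, gave 9.98 and 10.01 in E1KD cells, against 10.78 and 10.78 in NMuMG cells. With each array left out in turn, 28 to 34 of the 47 were lower. Genes of DNA replication did not move as one, with 10 of 39 lower, 7 higher and a median of -0.15. Over all genes 15.1% were lower and 17.8% higher. Tk1, thymidine kinase (-1.46), and Gins1, of the replicative helicase (-1.27), were lower, while its partner Gins3 (0.92) and the clamp loader subunit Rfc4 (0.62) were higher. With any array left out, 5 replication genes were lower and 3 to 5 higher.

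Promoter sequences of genes from both lists are shown because their members moved together. The genes shown were picked among the lower members whose promoters hold the words marked below. They therefore do not show how common these words are. They are the RefSeq promoters of the mouse build GRCm38.p6, from 250 bases before to 50 bases after the start of the gene, 300 bases each and read 5′ to 3′ on the strand of the gene. The table matched 14 of the 18 cholesterol genes and 39 of the 47 mitotic genes. Capitals mark matches, on either strand, to the CCAAT box (CCAAT, bound by NF-Y), which reads ATTGG from the other strand, to the cell cycle gene homology region, CHR (TTTGAA, or TTCAAA from the other strand), through which MuvB complexes switch mitotic genes, and to the sterol regulatory element, SRE (TCACNCCAC), which SREBP binds. The marked stretches do not overlap each other.

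Hmgcs1 (chr13:119690101-119690400, plus strand) holds 4 CCAAT boxes and 1 SRE, and was 1.47 lower in E1KD cells on the log2 scale.
Hmgcs1: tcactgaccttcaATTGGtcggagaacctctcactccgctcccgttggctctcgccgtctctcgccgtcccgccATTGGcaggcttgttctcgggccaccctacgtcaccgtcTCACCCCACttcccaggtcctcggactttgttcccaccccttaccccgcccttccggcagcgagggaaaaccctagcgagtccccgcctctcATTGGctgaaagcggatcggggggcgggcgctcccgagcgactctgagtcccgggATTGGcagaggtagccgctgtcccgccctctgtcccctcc
Cyp51 (chr5:4104648-4104947, minus strand) holds 1 CCAAT box and was 2.08 lower.
Cyp51: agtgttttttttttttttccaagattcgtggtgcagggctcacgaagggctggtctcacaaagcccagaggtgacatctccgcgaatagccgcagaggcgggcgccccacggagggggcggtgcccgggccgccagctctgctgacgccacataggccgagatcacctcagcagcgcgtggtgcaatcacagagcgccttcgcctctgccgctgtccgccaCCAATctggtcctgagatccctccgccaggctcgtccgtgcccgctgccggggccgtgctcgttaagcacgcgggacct
Kif23 (chr9:61946750-61947049, minus strand) holds 1 CCAAT box and 1 CHR close together and was 1.52 lower.
Kif23: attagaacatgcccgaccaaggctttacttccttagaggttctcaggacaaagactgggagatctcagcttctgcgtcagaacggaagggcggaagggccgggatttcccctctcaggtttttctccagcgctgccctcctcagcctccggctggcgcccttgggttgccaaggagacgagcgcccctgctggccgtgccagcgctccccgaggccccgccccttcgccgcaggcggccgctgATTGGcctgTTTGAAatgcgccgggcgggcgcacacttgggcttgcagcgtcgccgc
Kif11 (chr19:37376132-37376431, plus strand) holds 1 CCAAT box and 1 CHR, both on the other strand, and was 1.43 lower.
Kif11: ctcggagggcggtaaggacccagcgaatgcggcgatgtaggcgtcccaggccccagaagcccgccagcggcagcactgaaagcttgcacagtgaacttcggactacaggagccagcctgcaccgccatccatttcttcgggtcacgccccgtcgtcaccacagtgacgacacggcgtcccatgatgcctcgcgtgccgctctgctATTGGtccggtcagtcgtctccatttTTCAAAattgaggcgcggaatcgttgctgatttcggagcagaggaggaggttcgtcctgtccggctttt

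The lists differed in which of these words they carried. A CCAAT box lay in the promoters of 14 of 14 matched cholesterol genes (100%) and of 28 of 39 mitotic genes (71.8%), against 42.4% of the 10177 tested genes in the table and 41.1% of all its 27025 genes. A CHR lay in 29 of 39 mitotic genes (74.4%) and in 1 of 14 cholesterol genes (7.14%), against 14.2% of tested genes and 20.2% of all. The SRE word was rare, at 1 of 14 cholesterol genes and 1.41% of tested genes. The GC box (GGGCGG), with 13 of 14 and 32 of 39, was common among tested genes in general (66.5%). A match is a description of the letters in this window and not a measured binding site.

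Mesenchymal and contractile genes were higher in E1KD cells. Of 13 tested mesenchymal genes 8 were higher and none was lower, against 17.8% and 15.1% of all genes, with a median of 0.53. Fn1, the matrix protein fibronectin, gave 13.02 and 13.04 in E1KD cells, against 9.61 and 9.67 in NMuMG cells, a 10.5-fold higher level. Tagln, an actin-binding protein of smooth muscle, gave 8.34 and 8.42 in E1KD cells, against 5.68 and 5.48 in NMuMG cells. The adhesion molecule Ncam1 was higher by 2.78 and the smooth muscle actin Acta2 by 2.55. The summed signal of the basal and myoepithelial markers was also higher (366 to 373 in E1KD, 207 to 219 in NMuMG). Acta2 belongs to both lists, so that sum is not independent of the mesenchymal genes. The part of basal cells in the result was not tested. The classic markers moved less. Vim, vimentin, was near the top of the range in both lines, at 14.10 and 14.09 in E1KD cells and 13.77 and 13.81 in NMuMG cells, a difference of 0.30 that no longer passed when any of the 4 arrays was left out (adjusted p = 0.0556 to 0.095). Cdh2, N-cadherin, gave 11.78 and 11.54 in E1KD cells and 11.48 and 11.47 in NMuMG cells and did not pass. Of 26 genes of contractile actin and its binding proteins 14 were higher and 3 lower, with a median of 0.49. Besides Tagln and Acta2, the LIM proteins Csrp1 (2.75) and Zyx (1.20) and the ERM protein Msn (0.71) were higher. The relative of Msn, Ezr, ezrin of apical microvilli (-0.95), Vasp (-0.80) and Lasp1 (-0.64) were lower. A second kept Ezr probe set, however, differed by only -0.035 (adjusted p = 0.91).

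Matrix, protease and integrin genes had members on both sides. Fbln2, fibulin of elastic matrix (3.59), and the basement membrane collagens Col4a1 (2.45) and Col4a2 (1.98) were higher, and the laminin chains Lamb1 (-1.21), Lamc1 (-0.85), Lamb3 (-0.58) and Lama5 (-0.45) were lower, among 5 higher (up to 8 under other settings) and 4 lower of 21 tested, against 17.8% higher and 15.1% lower of all genes. The call of Lama5 was lost with any of the 4 arrays left out (adjusted p = 0.0717 to 0.156), and that of Lamb3 in the fit of all 32 arrays (adjusted p = 0.175). The fibrillar collagen gene Col1a2 was under the limit in all 4 arrays, at 5.28 and 5.00 in E1KD cells and 5.22 and 5.08 in NMuMG cells. Among integrin subunits 4 of 14 were higher, led by Itgb5 (1.34), Itgb6 (1.03) and Itgb1 (0.91), and 5 were lower, led by Itga1 (-2.33) and the hemidesmosome subunit Itgb4 (-1.48). Of 12 proteases and inhibitors 4 were higher and 4 lower. Mmp2, a gelatinase, gave 7.86 and 8.13 in E1KD cells, against 5.09 and 5.20 in NMuMG cells. Plat, tissue plasminogen activator, gave 8.30 and 8.34 in E1KD cells, against 12.03 and 12.13 in NMuMG cells, and the collagenase Mmp13 was lower by 2.20. The call of Timp2 as lower (-0.24) rests on 1 probe set, while its other 4 kept probe sets were 0.88 to 1.42 higher, and it was lost with any array left out (adjusted p = 0.102 to 0.2).

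Epithelial junction genes were lower in part, where 15.1% of all genes were lower and 17.8% higher. Of 12 tight junction genes 6 were lower and 3 higher, with a median of -0.42, and 1 to 2 were higher with an array left out. Ocln, occludin, gave 6.43 and 6.30 in E1KD cells, against 9.45 and 9.48 in NMuMG cells (-3.10, 8.57-fold lower). The scaffold gene Magi1 (-1.49), cingulin Cgn (-1.36), the polarity gene Crb3 (-1.35) and Tjp1, ZO-1 (-0.71) were also lower, and Pard3 (0.75), another polarity gene, was higher. Cdh1, E-cadherin, gave 11.87 and 11.79 in E1KD cells, against 12.43 and 12.40 in NMuMG cells, a difference of -0.58 (standard error 0.14, adjusted p = 0.00445), so its transcript was 1.5-fold lower and remained abundant. Adherens junction and desmosome genes fell into 5 higher and 5 lower of 19, from Ppl, periplakin (-2.21), to Nectin4 (1.75), and 3 to 4 were lower with an array left out. Among 8 keratins 4 were lower, led by Krt7 of ductal epithelia (8.51 and 8.53 in E1KD, 11.09 and 11.18 in NMuMG), and Krt80 (0.90) was higher. Muc1, the apical mucin, gave 7.89 and 7.99 in E1KD cells, against 10.69 and 10.66 in NMuMG cells, and the lipocalin Lcn2 was higher (2.47). Of 11 epithelial regulators the transcription factors Tfap2a (-2.13), Ehf (-1.89) and Foxa1 (-1.01) and the splicing factor Esrp2 (-0.68) were lower and Klf4 (1.09) was higher.

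**Figure D3:**
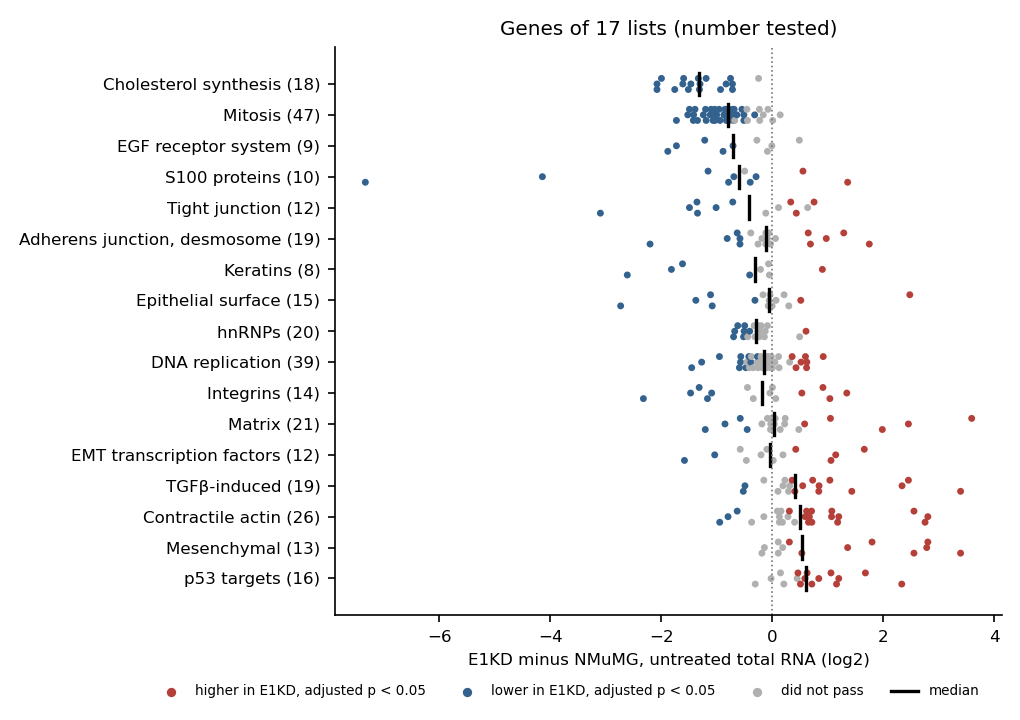
Difference E1KD minus NMuMG in untreated total RNA (log2) of each tested gene of 17 lists, with the number of genes in brackets, red where higher and blue where lower at an adjusted p under 0.05, grey where the test was not passed, and a black bar at the median. Cholesterol synthesis and mitosis lie almost wholly below 0, mesenchymal genes and p53 targets mostly above, and junction, integrin and matrix genes on both sides.

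The EMT transcription factors did not move together. Of 12 tested, 4 were higher and 2 lower, against 17.8% and 15.1% of all genes. Zeb2, a repressor of Cdh1, gave 9.70 and 9.26 in E1KD cells, against 7.98 and 7.67 in NMuMG cells, a difference of 1.65, which 2 of its 3 other kept probe sets also showed. Snai2, Slug, gave 11.83 and 11.89 in E1KD cells, against 10.79 and 10.82 in NMuMG cells. Foxc1 (1.14) and Zeb1 (0.42) were higher, though Zeb1 did not pass in the fit of all 32 arrays (adjusted p = 0.144) or without the second E1KD array (adjusted p = 0.0669). Snai1 did not pass (5.22 and 5.06 in E1KD, 4.87 and 5.03 in NMuMG), and Twist1 was under the limit in all 4 arrays, from 3.77 to 4.39. The chromatin protein Hmga2 (-1.58) and Sox9 (-1.04) were lower. The Snai2 difference of 1.055 without TGFβ turned to the other sign with it (interaction -2.035).

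Single ligands and receptors of several signalling systems differed. Among TGFβ and BMP pathway genes 6 of 29 were higher (4 to 11 under other settings) and 8 lower, against 17.8% and 15.1% of all genes. On the ligand side Inhbb, an activin subunit, gave 8.99 and 9.17 in E1KD cells, against 4.68 and 4.88 in NMuMG cells. A second kept Inhbb probe set differed by only 0.11 (adjusted p = 0.666). Bmp2 (1.44), Tgfb2 (1.27) and Inhba (0.77) were higher, and Bmp4 was lower (-1.79). On the receptor side Tgfbr3, betaglycan, gave 5.71 and 5.72 in E1KD cells, against 8.10 and 8.26 in NMuMG cells. Smad2, a transducer of TGFβ, was lower by 1.06, while its second kept probe set differed by -0.1 (adjusted p = 0.819). Of 19 genes known to be induced by TGFβ 11 were higher and 2 lower without any TGFβ, with a median of 0.41, among them Il11 (2.33), Thbs1 (1.43) and Fn1. TGFβ itself raised 12 of these 19 and lowered none in NMuMG cells, a comparison that shares the untreated NMuMG arrays and in which 3.46% of all genes were higher and 2.95% lower. In the fit of all 32 arrays 5 of the 19 were higher, and Thbs1 no longer passed (adjusted p = 0.0611). Id1 and Id2, inhibitors of differentiation and targets of BMP signalling, were lower. Id1 gave 9.57 and 9.64 in E1KD cells, against 11.41 and 11.47 in NMuMG cells, and Id2 gave 9.20 and 9.13 in E1KD cells, against 11.14 and 11.25 in NMuMG cells.

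The EGF receptor system was lower in 5 of 9 genes and higher in none, with a median of -0.71. Egfr gave 10.06 and 10.02 in E1KD cells, against 11.76 and 11.78 in NMuMG cells, and 4 of its 5 other kept probe sets were lower as well. Its ligand Tgfa was lower by 1.89 by 1 probe set, but the median of its 3 probe sets differed by -0.19 (adjusted p = 0.34). Errfi1 (-1.22), a feedback inhibitor of the receptor, Btc (-0.89) and Erbb2 (-0.71) were also lower. In the Wnt pathway 5 of 22 genes were higher, against 17.8% of all genes, among them Wnt9a (8.20 and 8.43 in E1KD, 5.30 and 5.20 in NMuMG) and the receptors Fzd6 (2.47), Fzd1 (2.04) and Fzd2 (1.35), and 6 were lower, against 15.1% of all genes, a count that fell to between 2 and 4 when an array was left out. Of 18 chemokines, interleukins and colony-stimulating factors 6 were lower and 5 higher, with a median of 0.06 (17.8% of all genes were higher and 15.1% lower), and 3 to 5 were higher with an array left out. Cxcl1 gave 8.59 and 8.71 in E1KD cells, against 11.40 and 11.21 in NMuMG cells, and the chemokines Cxcl5 (-3.02), Ccl20 (-2.52) and Ccl2 (-1.85) were lower too, while the monocyte chemokine Ccl7 (0.88) and the macrophage growth factor Csf1 (0.94) were higher. Of 21 interferon-stimulated genes 6 were lower, led by Ifit3 (-2.92), and 2 were higher, and the lower count fell to between 2 and 4 with an array left out.

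Targets of p53 were higher. Of 16 tested 11 were higher and none lower, with a median of 0.60. Cdkn1a, the cyclin-dependent kinase inhibitor p21, gave 12.11 and 12.12 in E1KD cells, against 10.41 and 10.47 in NMuMG cells. Eda2r, a death receptor relative, gave 7.18 and 6.92 in E1KD cells, against 4.71 and 4.73 in NMuMG cells, and Btg2 (1.19) and Phlda3 (1.16) followed. With an array left out 9 to 10 of the 16 were higher. Among 17 G1 cyclins and CDK inhibitors 3 were higher (Cdkn1a, Ccnd2 at 1.18 and Cdkn2c at 0.50, a call lost with 3 of the 4 arrays left out in turn, adjusted p = 0.0578 to 0.253) and 7 were lower, which fell to between 4 and 5 with an array left out. The S100 genes were lower in 7 of 10 and higher in 2. The higher ones were S100a4, a marker of mesenchymal cells (11.62 and 11.64 in E1KD, 10.24 and 10.31 in NMuMG), and S100a16 (0.51 and 0.55 by its 2 probe sets). Of 19 glutathione and NRF2 target genes 4 were higher and 5 lower, or 3 to 4 lower with an array left out, against 17.8% and 15.1% of all genes, with Gstm2 (2.11) and Hmox1 (2.05) higher and the cystine transporter Slc7a11 (-1.38) and Gsr (-0.93) lower.

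Of the 36 genes that the study selected as translationally regulated through hnRNP E1, 10 were higher and 7 lower in untreated total RNA. Over all genes 17.8% were higher and 15.1% lower. The list had a median of 0.07, and 5 to 11 of its genes were lower under other settings. The study chose that list on these arrays, so the counts are not independent evidence. The higher ones comprised Zeb2, Palld (1.06), Cast (0.93), Eif5a2 (0.89), Inhba (0.77) and Msn. The lower ones comprised Prxl2a, which gave 9.0 and 8.78 in E1KD cells, against 12.29 and 12.30 in NMuMG cells, and Egfr, Ccl2, Hmga2 and Jak2 (-1.15). The calls of the mRNAs first known to be held by hnRNP E1 depended on the fit or the probe set. Dab2, an endocytic adaptor, gave 5.58 and 5.67 in E1KD cells and 5.12 and 5.08 in NMuMG cells (adjusted p = 0.175), and passed with only the compared arrays fitted (adjusted p = 0.0033) or the 8 total RNA arrays (adjusted p = 0.00773). Fam3c, the secreted factor ILEI, gave 11.39 and 11.50 in E1KD cells and 11.40 and 11.47 in NMuMG cells, while its second probe set was higher by 0.80 (adjusted p = 8.63e-05). Neither the elongation factor gene Eef1a1 (14.53 and 14.52 in E1KD, 14.55 and 14.55 in NMuMG) nor the kinase gene Akt2 (difference -0.18, adjusted p = 0.197) passed by its brightest probe set. A dimmer Akt2 probe set was higher by 0.695 (adjusted p = 0.00426), and another differed by -0.07 (adjusted p = 0.797).

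With TGFβ, 1987 genes (15.8%) were higher and 1832 (14.5%) lower in E1KD cells than in NMuMG cells. That comparison uses other arrays of the same lines. Of the 2242 genes higher without TGFβ, 1162 were also higher with it and 122 were lower, and of the 1898 lower genes 969 were also lower and 126 were higher. The median difference of the higher genes was 0.765 without and 0.443 with TGFβ, and that of the lower genes -0.725 and -0.445, where the genes had been selected on the untreated arrays. The dependence of the difference on TGFβ was tested as an interaction, which was positive for 797 genes (6.33%) and negative for 861 (6.83%). Scaled on Actb and Gapdh, these counts were 505 and 1522, and 1550 genes were higher and 2440 lower with TGFβ, so the balance between the directions depends on the scaling.

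Mitotic genes turned their direction with TGFβ. With TGFβ 28 of the 47 were higher and none lower in E1KD cells, with a median of 0.68, and the interaction was positive and passed for 41. Mki67, lower by 0.79 without TGFβ, was higher by 1.34 with it, and Kif23 was lower by 1.52 without and higher by 0.67 with TGFβ. In NMuMG cells TGFβ changed the list by a median of -0.02, with none of the 47 past the threshold. Scaling did not turn the direction of the interaction, which was positive and passed for 38 to 45 genes under the other settings and for 35 to 37 with an array left out. The untreated difference also varied between RNA pools, with medians of 0.33 in polysomal and -1.31 in monosomal RNA. The cholesterol genes differed less between treatments, and the interaction passed for 2 of 18, Idi1 (1.16) and Stard4 (0.92).

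**Figure D4:**
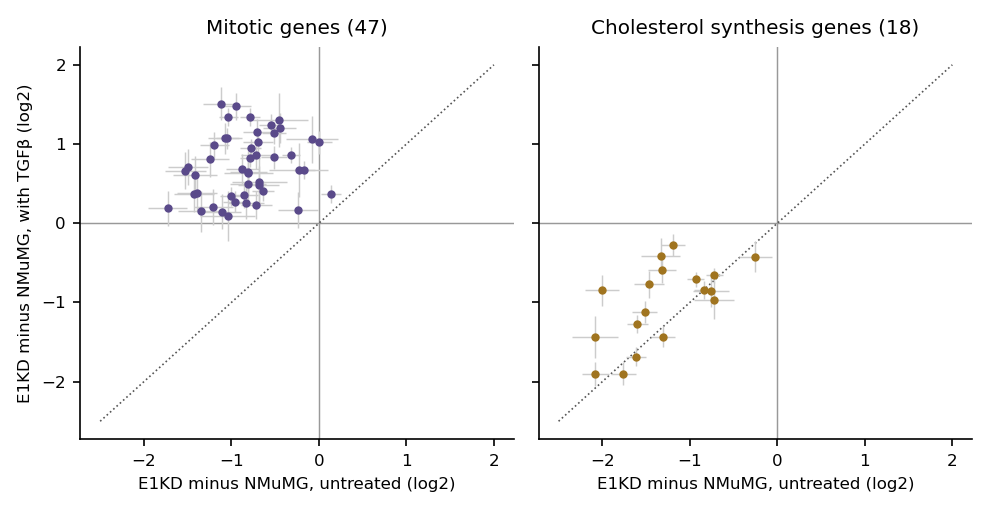
Difference E1KD minus NMuMG (log2) without TGFβ on the horizontal and with TGFβ on the vertical axis, for 47 mitotic genes (left) and 18 cholesterol synthesis genes (right), with standard errors as grey bars and a dotted line where both are equal. All 47 mitotic genes lie above 0 on the vertical axis and 45 of them left of 0 on the horizontal axis, and all 18 cholesterol genes are below 0 on both axes.

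Single genes depended on TGFβ in several ways. Some were high in untreated E1KD cells and lost with TGFβ or caught up in NMuMG cells. Klhl30 gave 9.70 and 9.85 in E1KD cells, against 4.71 and 4.42 in NMuMG cells, but 8.59 and 8.57 in E1KD cells and 9.29 and 9.38 in NMuMG cells with TGFβ. Mamdc2 gave 9.34 and 9.40 in untreated E1KD cells, against 5.17 and 5.31 in NMuMG cells, and 5.27 and 5.12 in E1KD cells, against 5.02 and 5.27 in NMuMG cells, with TGFβ. The stress factors Atf3 (1.58) and Ddit3 (0.71), also called CHOP, were higher without TGFβ and lower by 2.25 and 2.93 with it. Car6, a secreted carbonic anhydrase, went with them (3.37 without and -0.62 with TGFβ). Krt7 and the peroxiredoxin Prdx4 were lower without TGFβ and much lower with it. Prdx4 gave 8.48 and 8.53 in untreated E1KD cells, against 11.10 and 11.06 in NMuMG cells, and 4.02 and 4.15 in E1KD cells, against 11.03 and 11.01 in NMuMG cells, with TGFβ. Others were lower in untreated E1KD cells and higher with TGFβ. Id2 differed by -2.03 without and 2.01 with TGFβ, and the cornified envelope gene Sprr1a by -1.47 and 2.94, of which the first did not pass in the fit of all 32 arrays (adjusted p = 0.061). Plat differed by -3.76 without and 0.01 with TGFβ, when both lines stood between 9.84 and 9.95, a level above untreated E1KD cells and below untreated NMuMG cells.

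Differences were not spread evenly along the chromosomes, a pattern looked for after the values had been seen. Tested genes were put in the order of the RefSeq annotation of GRCm38.p6 and cut into 251 blocks of up to 50 neighbours on chromosomes 1 to 19 and X. Block medians ranged from -0.387 to 0.448, with the 5th percentile at -0.168 and the 95th at 0.201. Of 8 blocks with a median of at least 0.35, 5 were on chromosome 8, 2 on chromosome 14 and 1 on chromosome 4. On chromosome 8 the first 6 blocks had medians of 0.025 to 0.145 and the last 8, from Tom1 to Itgb1, of 0.148 to 0.44. Those last 8 held 384 genes, of which 163 were higher and 28 lower. On chromosome 14 the first 2 blocks, up to Galnt15, had medians of 0.448 and 0.438, with 25 higher genes each and 5 and 1 lower, while the other 6 lay between -0.128 and -0.075. The first block of chromosome 4 stood at 0.422 and its last, from Car6 to Fndc10, at -0.387 with 24 genes lower and 2 higher. Chromosome 8 as a whole had 33.0% of its 684 genes higher and 9.21% lower, whereas chromosome 19 had 9.8% of 459 higher and 29.6% lower. With TGFβ the 8 blocks had medians of 0.212 to 0.658, and blocks outside the 8 reached 0.47. In polysomal RNA their medians were 0.058 to 0.998, and in monosomal RNA -0.09 to 0.46, so that some of them lay near 0 there. What sets these blocks apart was not tested.

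**Figure D5:**
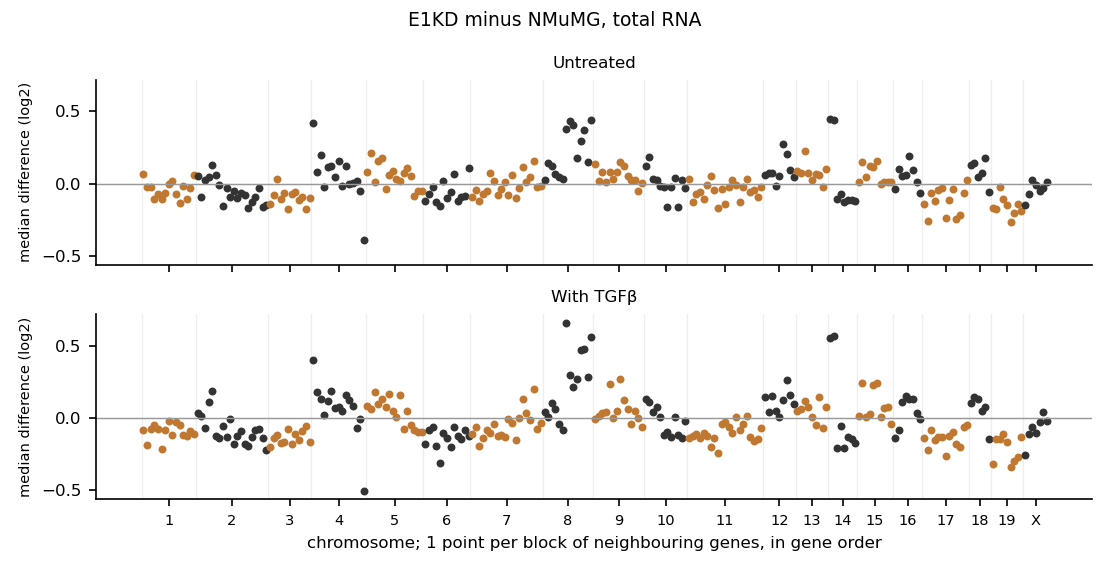
Median difference E1KD minus NMuMG (log2) of each of 251 blocks of neighbouring genes in gene order, without TGFβ above and with TGFβ below, chromosomes in alternating colours. The last 8 blocks of chromosome 8, the first 2 of chromosome 14 and the first of chromosome 4 lie between 0.148 and 0.448 without TGFβ, and the last block of chromosome 4 lies at -0.387.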

How the data were processed

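Total, polysomal, monosomal and immunoprecipitated RNA of NMuMG and E1KD cells had been hybridised to Affymetrix mouse genome arrays, 2 per group. The authors deposited log2 signals made by RMA, and which arrays were normalized together is not stated. Coordinates and promoters came from RefSeq (GRCm38.p6). A probe set entered the tests where its signal exceeded 5.52, the median over the whole table, on 8 of the 32 arrays or more, which left 25432 of 45101 probe sets. A gene was represented by its brightest probe set with 1 symbol in the platform annotation (12600 genes). The depth of an array has no counterpart in reads, and 2 arrays per group limit the precision. The tests were those of limma 3.58.1 (R 4.3.3) on 24 arrays (12 groups, immunoprecipitated RNA left out), which share 1 estimate of the spread, and p-values were adjusted by Benjamini and Hochberg over all probe sets kept. Calls required an adjusted p below 0.05. The script was tested on simulated data. Named are the poly(C)-binding protein genes, a set of EMT and hnRNP E1 genes, the 15 largest differences in each direction, up to 4 genes per list and direction, and the 8 largest interactions of each sign. Hmgcs1, Mki67, Col1a2, Erbb2, Hsd17b7, Jak2 and Stard4 were picked after their values were seen. Members and lists were chosen with earlier results of these data known. Alternatives were other sets of arrays, filters, scalings and probe set rules, an intensity trend, a replicate block, a minimum difference of 1 and leaving out each array.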

Additional observations from a re-analysis of the deposited data

Results flagged for a closer look

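The difference between E1KD and NMuMG cells changed with TGFβ, by the interaction term of limma at an adjusted p under 0.05, for 84 of the 172 tested genes named above, 46 with a positive and 38 with a negative interaction. Over all genes the shares were 6.33% and 6.83%. The named genes, however, were mostly chosen for large differences, and some for having the largest interactions of either sign. Part of the 84 therefore passed by the way they were chosen, so the counts cannot be weighed against these shares. Values are log2 differences of E1KD minus NMuMG with TGFβ less the same without, and their causes were not tested.

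Flagged genes that were higher in untreated E1KD cells mostly had a smaller excess, or a difference of the other sign, with TGFβ. Many were picked on the untreated difference that the interaction subtracts, and some on the interaction itself. The choice therefore favoured a negative value, and the signs are not independent evidence. The interaction was -5.965 for Klhl30, -4.08 for Mamdc2, -3.99 for Car6, -2.93 for Acta1, -2.515 for Rragd, -2.195 for Ctla2a, -2.015 for Aldh1l2 and -0.765 for Trip6. It was -3.835 for Atf3 and -3.645 for Ddit3, of the stress response. Mesenchymal and contractile genes followed, with -2.0 for Tagln, -1.95 for Fn1, -1.745 for Ncam1, -1.54 for Csrp1, -1.385 for Acta2 and -1.295 for Zyx. Transcription factors with a negative value were Snai2 (-2.035), Zeb2 (-1.59) and Klf4 (-1.18). Matrix and integrin genes were Fbln2 (-1.975), Col4a1 (-0.595), Itgb1 (-0.585) and Itgb5 (-0.47). Secreted factors and receptors were Lcn2 (-1.935), Wnt9a (-1.91), Il11 (-1.235), Csf1 (-1.145) and Fzd2 (-0.74). The p53 targets Eda2r (-1.515) and Btg2 (-1.245) and the NRF2 targets Gstm2 (-0.745) and Hmox1 (-0.6) were in this group too. Genes lower in untreated E1KD cells and lower still with TGFβ were Prdx4 (-4.36), Krt7 (-3.535), Mmp13 (-1.85), Cdh16 (-1.475), Lamb3 (-0.785) and Pcbp1 itself (-1.425).

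Positive interactions were found for mitotic and replication genes, with 2.205 for Cenpf, 2.19 for Kif23, 2.125 for Mki67, 1.92 for Kif20b, 1.8 for Kif11, 2.14 for Tk1 and 1.245 for Gins1. The Id genes had 4.035 (Id2) and 2.15 (Id1). Among epithelial, keratin and junction genes the values were 4.41 for Sprr1a, 1.99 for Ppl, 1.18 for Muc1, 0.9 for Ezr, 0.815 for Esrp2, 0.785 for Tfap2a and 0.765 for Vasp. Chemokines and other immune genes had 3.635 (Cxcl5), 3.045 (Il33), 2.985 (Cxcl1), 2.705 (S100a9), 2.405 (Ifit3), 2.0 (Ccl20), 1.545 (S100a8), 0.955 (Csf1r) and 0.905 (Ccl2). Of the largest decreases without TGFβ, Apoc2 (2.33), Serpina1c (2.295), Serpina1b (1.74), Akr1c19 (1.705), Hpgds (1.64), Sec16b (1.515) and Agmo (1.29) had a smaller gap with TGFβ. Their choice on the untreated difference favoured a positive value. Growth factor genes were Bmp2 (1.6), Btc (1.3), Tgfa (1.19) and Errfi1 (0.685). The remainder were Plat (3.775), the CDK inhibitor Cdkn2c (1.07), S100a4 (1.635), Itga1 (1.385), Idi1 (1.155), Hmga2 (1.06), Hnrnpd (1.06), Lamc1 (0.97), Gsr (0.94) and Stard4 (0.92).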

How the results depend on the processing

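Of the tests of single genes under other settings, 3425 stayed on their side of the threshold, 125 no longer passed and 13 passed only then. Another 2, of genes that had passed, reversed their sign. They were Timp2 (0.875) and Hnrnpd (0.047) with the median of a gene's probe sets. Sign changes of genes that had not passed were not counted as reversed. Pcbp2 was such a gene, at 0.025 and, by that median, at -0.345 (limma, adjusted p = 0.00847). Counts of genes passing were 4140 without TGFβ, 3819 with TGFβ and 1658 for the interaction. Fitted on the 8 total RNA arrays they were 6284, 6282 and 3949, and with a difference of at least 1 required they were 1235, 1021 and 754. With an array left out, which leaves 1 sample assumed to vary like the other groups, they were 2957 to 3017, 2586 to 2686 and 1036 to 1090. The other settings moved the counts by less than 1.5 times. Replicate numbers do not pair the samples by their labels, and deviations of same-numbered samples correlated by -0.035 to 0.29. With the replicate block the counts were 4172, 3865 and 1702. Scaling on Actb and Gapdh moved the median difference of all genes to 0.058, and 62.9% of calls without TGFβ were then higher, against 54.2%. Signals at or under 5.52 were not separated from background, so differences that start there are the least certain in size.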
